A study of Hordeum vulgare with 10 samples.

Results

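The miR166 isomiRs of dry barley embryos were examined as 8 of the miRNAs counted in the small RNA libraries, which were 61 known and 81 predicted ones. They comprised the 7 known forms miR166.1 to miR166.7, chosen by name, and hvu-new45, a predicted miRNA with the sequence of miR166.7. The tissue was the embryo with the scutellum, dissected from dry seeds of barley cv. Damazy, and each of the 3 seed groups gave 3 libraries. Lv and Hv were seeds of a single lot stored from 1972 to 2018 in separate sealed flasks. The Lv seeds gained moisture in storage, which the paper ascribes to a probable slight leak of their flask. Lv seeds had lost nearly all viability (2% germination), whereas Hv seeds had kept most of it. Rc was the non-stored control, obtained by growing a sample of the high-viability seeds in the field. Each stored group was therefore 1 flask and Rc 1 regrown harvest, so that storage or viability cannot be told apart from flask, seed moisture or harvest. All seeds shared the cultivar, and the count table holds no mRNA by which the dissected tissue could be checked.

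miR166 is one of the oldest plant miRNA families. In Arabidopsis and maize it directs cleavage of mRNAs for class III homeodomain-leucine zipper (HD-ZIP III) transcription factors, which set the upper side of leaves, maintain the shoot meristem and pattern vascular tissue and the embryo. IsomiRs are forms of one miRNA that differ at their ends. Loss of bases at the 3′ end leaves the seed (bases 2 to 8, the 5′ part of the pairing with a target) in place, while loss at the 5′ end shifts it. In Arabidopsis, ARGONAUTE1, the main effector of miRNA-directed cleavage, prefers small RNAs that begin with U.

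The sequences are shown because they separate the forms that keep the seed from those that do not. The 5 known isomiRs whose sequence was used here are written 5′ to 3′, with the seed of each in capitals.
miR166.7: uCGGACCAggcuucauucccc
miR166.6: uCGGACCAggcuucauuccc
miR166.5: uCGGACCAggcuucauucc
miR166.2: cGGACCAGgcuucauucccc
miR166.3: gGACCAGGcuucauucccc
miR166.7 was the longest, with 21 nt. miR166.6 lacked 1 base and miR166.5 lacked 2 bases at the 3′ end, and both kept the first base U and the seed CGGACCA. miR166.2 lacked 1 base and miR166.3 lacked 2 bases at the 5′ end, so that they began with C and G and had other seeds. The sequences of miR166.1 and miR166.4 were not used here.

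The seed of miR166.7 was also found in 3 of the 81 predicted miRNAs. One was hvu-new45, and the other two are shown because they differ from miR166.7 at single bases, counted from 1 at the 5′ end.
hvu-new46: uCGGACCAggcuucauucccu
hvu-new44: uCGGACCAggcuucaaucccu
hvu-new46 differed from miR166.7 by C21U, and hvu-new44 by U16A and C21U. All of these changes lay outside the seed.

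The predicted precursors show from which places in the genome these forms could come. hvu-new45 was placed on 4 chromosomes of the barley build IBSC_v2, with the mature strand at 353507114 to 353507134 of 1H, 593261511 to 593261531 of 4H, 593550102 to 593550122 of 5H and 558749374 to 558749394 of 7H, all on the plus strand. hvu-new46 lay at 539379330 to 539379350 of 6H on the plus strand, and hvu-new44 at 513807919 to 513807939 of 5H on the minus strand. These positions are those listed by the authors and lie 1 base after those that the listed hairpin starts imply, so they may be off by 1. No gene annotation of this build was used here. A star strand, the partner of the mature strand on the other arm, was listed for hvu-new45 on 1H and 7H and hvu-new44 on 5H. None was listed for the other loci of hvu-new45 or for hvu-new46. Below, 3 of the hairpins are written with the mature strand in capitals.
hvu-new45 on 5H: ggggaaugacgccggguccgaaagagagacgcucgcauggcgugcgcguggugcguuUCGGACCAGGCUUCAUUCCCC
hvu-new45 on 1H: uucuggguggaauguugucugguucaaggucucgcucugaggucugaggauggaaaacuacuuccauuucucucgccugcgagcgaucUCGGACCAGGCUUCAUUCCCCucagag
hvu-new46 on 6H: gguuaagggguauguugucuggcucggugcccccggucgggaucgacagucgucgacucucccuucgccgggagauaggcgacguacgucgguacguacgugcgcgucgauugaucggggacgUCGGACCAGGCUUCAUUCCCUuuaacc
In all of them the mature strand was on the 3′ arm. RNAfold gave a minimum free energy of -47.0 kcal/mol for the 5H hairpin of 78 nt, -62.9 kcal/mol for the 1H hairpin of 115 nt and -83.9 kcal/mol for the 6H hairpin of 150 nt, with 19, 17 and 17 of the 21 mature bases paired. Among 116 distinct predicted hairpins, miR166.7, miR166.2 and miR166.3 were found in the 4 hairpins of hvu-new45, whereas miR166.6 and miR166.5 were also found in that of hvu-new46. The shorter forms thus could not be assigned between the hvu-new45 and hvu-new46 loci.

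Depth was low. Total counts per library ranged from 3966 to 19542, those of the 61 known miRNAs from 940 to 4407, and those of the miR166 family from 236 to 1042. The libraries were sequenced in 2 runs. All Lv libraries came from run 2, Rc 2, Rc 3, Hv 1 and Hv 2 from run 1 and Hv 3 from run 2, while Rc 1 was sequenced in both and the run behind its counts is not known. Run and group can therefore largely not be told apart. The fraction of cells that contain a miRNA and its amount per cell cannot be told apart in such tissue RNA either.

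miR166 was one of the most counted families in every library. The 7 isomiRs together had 412, 403 and 1042 counts in the Rc libraries, 236, 637 and 642 in those of Lv and 237, 531 and 849 in those of Hv. The family ranked second of 13 known families in 8 of 9 libraries and lower by 1 rank in the other, always behind miR159. Its share of all known miRNA counts averaged 23.1% ± 0.593 for Rc, 24.9% ± 0.788 for Lv and 23.6% ± 1.66 for Hv (SD, n = 3). All 9 libraries lay between 22.0% and 25.6%, and the Hv range covered that of Rc.

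miR166.7 carried most of the family. It had 330, 319 and 832 counts in the Rc libraries, 189, 517 and 505 in those of Lv and 191, 423 and 640 in those of Hv. In each group the library with the fewest counts of miR166.7 was also the one with the fewest counts in all. Its 3946 counts were 79.1% of the 4989 family counts (95% exact binomial interval, 77.9 to 80.2%), which made it the second most counted known miRNA. In RPM, its counts scaled to the mapped reads of the library, its level averaged 1534 ± 317 for Rc, 1325 ± 254 for Lv and 1310 ± 298 for Hv (SD, n = 3). The exact intervals and limits, here and below, treat each count as an independent read and cover counting error only. Counts of known miRNAs were, however, 1.17 to 2.53 times the reads listed as matching miRNAs. The intervals and limits may thus be too narrow even for counting error. The reads also carried no molecular identifiers.

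The remaining counts belonged almost entirely to miR166.5, miR166.6 and miR166.4. miR166.5, the form shorter by 2 bases, had 34, 35 and 102 counts in the Rc libraries, 17, 40 and 57 in those of Lv and 17, 53 and 94 in those of Hv, or 449 of the 4989 family counts (95% exact interval of the share, 8.22 to 9.83%). miR166.6, shorter by 1 base, had 32, 25 and 59 counts in the Rc libraries, 20, 53 and 54 in those of Lv and 16, 34 and 77 in those of Hv, or 7.42% of the family (6.70 to 8.18%). These 2 forms were thus counted about as often. miR166.4 had 16, 24 and 49 counts in the Rc libraries, 9, 26 and 26 in those of Lv and 13, 21 and 37 in those of Hv, or 4.43% of the family (3.88 to 5.04%).

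**Figure D1:**
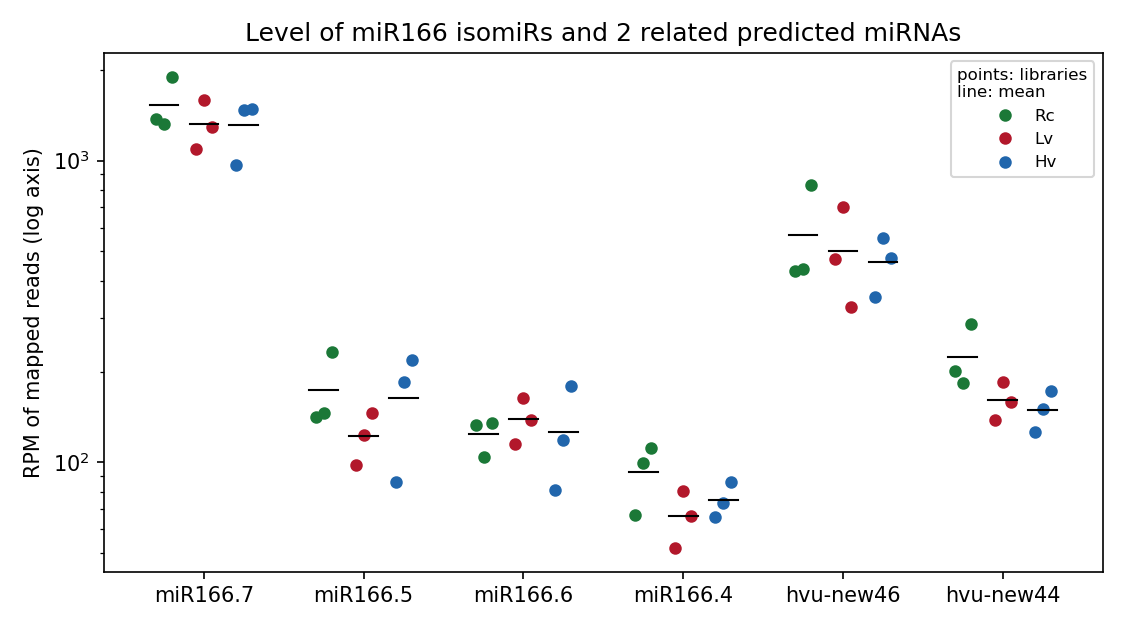
Level of the 4 counted miR166 isomiRs and of hvu-new46 and hvu-new44 in RPM of mapped reads, on a log axis. Each point is 1 library and the lines are group means (n = 3). miR166.7 lies above the other forms in every library, though hvu-new46 reached up to 44.1 counts per 100 of miR166.7. Stored and Rc libraries overlap for each form.

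The order of the forms was partly fixed. miR166.7 exceeded miR166.5 in 9 of 9 libraries, with a ratio of 9.38 (mean log2 ratio 3.23 ± 0.29, SD, n = 9). miR166.5 exceeded miR166.6 in 7 of 9 libraries, and the mean log2 ratio of 0.20 ± 0.39 was smaller than its spread, so the order of these neighbours was not resolved. It was the order in 3 of 3 Rc and 3 of 3 Hv libraries, but in 1 of 3 Lv libraries. miR166.6 exceeded miR166.4 in 9 of 9 libraries, with a mean log2 ratio of 0.73 ± 0.42.

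The forms known to lack bases at the 5′ end had few counts. miR166.1, miR166.2 and miR166.3 had 1 count each, in Hv 3, Lv 2 and Lv 1, respectively, and did not pass the minimum of 10 counts over the libraries that 4 of the 7 isomiRs passed. miR166.2 and miR166.3, the forms with another seed among the 5 of known sequence, were 2 of 4989 family counts, or 0.0401% (95% exact interval, 0.00486 to 0.145%). Neither was counted in Rc or Hv. A count of 0 there allows a share of up to 0.162% of the 1857 family counts in Rc and 0.186% of the 1617 in Hv, so a difference from Lv was not detectable at this depth.

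hvu-new45 repeated miR166.7. It had 1320, 1276 and 3328 counts in the Rc libraries, 756, 2068 and 1941 in those of Lv and 764, 1692 and 2560 in those of Hv, which was exactly 4 times the count of miR166.7 in 8 of 9 libraries. The factor equals the number of its predicted loci. In Lv 3 the ratio was 3.84, 79 counts short of the 2020 that a factor of 4 would give. These counts were not added to the family, and hvu-new45 is not a second measurement of it.

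hvu-new46 and hvu-new44, which share the seed but not the last base of miR166.7, were counted at levels above or near those of miR166.5, miR166.6 and miR166.4. hvu-new46 had 103, 105 and 365 counts in the Rc libraries, 82, 228 and 128 in those of Lv and 70, 159 and 205 in those of Hv. hvu-new44 had 48, 44 and 126 counts in the Rc libraries, 24, 60 and 62 in those of Lv and 25, 43 and 74 in those of Hv. hvu-new46 exceeded miR166.5 in all 9 libraries.

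The first comparison asked whether miR166 differed between seeds stored for decades (Lv and Hv, 6 libraries) and the regenerated control. None of the 4 tested isomiRs was called by edgeR's quasi-likelihood test with Benjamini-Hochberg adjustment, against a background of 0.0% of the 99 miRNAs tested. Unadjusted p was below 0.05 for 9 of the 99, none of them a member, and DESeq2 called 3. In CPM, the deposited counts scaled to the library's total count with TMM factors, none of the 4 isomiRs had groups that did not overlap, beside 0.0% of miRNAs with all stored libraries higher and 3.03% with all lower.

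The family sum averaged 66317 ± 6936 CPM for Rc, 72103 ± 8181 for Lv and 69964 ± 8427 for Hv (SD, n = 3). Its log2 fold change, stored over Rc, was 0.10 (SE 0.13, 95% interval -0.18 to 0.38, edgeR adjusted p = 0.898). That interval limits, under this scaling, how far the family level may have differed. miR166.7 gave 0.12 (interval -0.17 to 0.40, edgeR adjusted p = 0.871). The less counted forms were measured less precisely. miR166.6 had the largest estimate of the isomiRs, 0.43 (SE 0.28, interval -0.19 to 1.05, edgeR adjusted p = 0.690), and adjusted p ranged from 0.585 to 0.970 over its 17 alternatives. The estimate fell to 0.0987 with library sizes from mapped reads. With the run as a covariate and Rc 1 left out, it was 0.0852. That value in effect rests on Hv 1 and Hv 2 against Rc 2 and Rc 3, all from run 1. miR166.5 gave 0.05 (interval -0.63 to 0.73) and miR166.4 gave -0.06 (interval -0.76 to 0.64), both with an edgeR adjusted p of 0.983. The median of the 4 isomiRs was 0.08, beside -0.02 over all miRNAs tested.

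The sign of the family's difference depended on the scaling and on the libraries compared. With library sizes taken from the mapped reads, the family sum gave -0.21 and miR166.7 -0.22, while the median of all miRNAs moved by -0.33 on the log2 scale to -0.35. With the run as a covariate and Rc 1 left out, the family sum gave -0.06. The total counts also include predicted miRNAs that repeat counts over loci, such as hvu-new45. With these left out, miR166.7 gave 0.0135, the family sum 0.0936 and the median of all miRNAs -0.12.

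**Figure D2:**
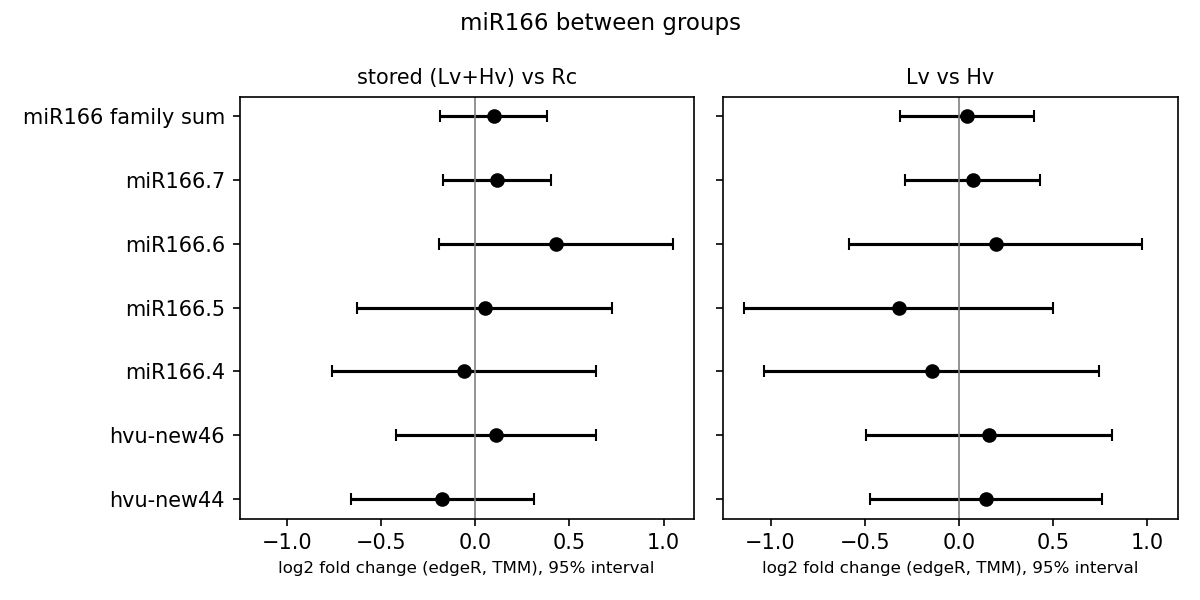
Log2 fold changes (points) with 95% intervals (bars) from edgeR for the miR166 family sum, its 4 tested isomiRs and 2 predicted miRNAs with the same seed, for stored over Rc (left) and Lv over Hv (right). Every interval includes 0, and those of miR166.7 and the family sum are the narrowest.

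The second comparison asked whether miR166 differed between Lv and Hv, which differed in viability after storage over the same years. No isomiR was called between Lv and Hv, beside 0.0% of the 99 miRNAs by edgeR, with 5 at an unadjusted p below 0.05 and 0 called by DESeq2. None of the 4 had groups that did not overlap in CPM, while 5.05% of miRNAs were higher in every Lv library and 3.03% lower. The family sum gave a log2 fold change, Lv over Hv, of 0.04 (SE 0.16, interval -0.31 to 0.40, edgeR adjusted p = 1), and miR166.7 gave 0.07 (interval -0.29 to 0.43, edgeR adjusted p = 0.986). miR166.5 gave -0.32 (SE 0.36, interval -1.14 to 0.50) and miR166.6 gave 0.19 (interval -0.58 to 0.97). Both depended on Hv 3, without which they were -0.0354 and 0.54. With the run as a covariate and Rc 1 left out they were -0.74 and -0.28. That fit in effect set the 3 Lv libraries against Hv 3 alone, the only Hv library from run 2. The median of the 4 isomiRs was -0.04, beside -0.01 over all miRNAs tested. The family sum gave -0.16 with the run as a covariate, again against Hv 3 alone, and -0.13 without Lv 2, so its direction was not settled.

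Shares within the family need no library size. miR166.7 made up 79.7% ± 0.487 (SD, n = 3) of family counts for Rc, 80.0% ± 1.25 for Lv and 78.5% ± 2.78 for Hv, and single libraries lay between 75.4% and 81.2%. The stored seeds differed from Rc by -0.443 percentage points (exact two-sided permutation test, p = 0.905, and 0.905 adjusted over 2 comparisons). Lv differed from Hv by 1.42 points (exact two-sided permutation test, p = 0.6, adjusted 0.905). The smallest p these designs allow is 0.0238 for 6 libraries against 3 and 0.1 for 3 against 3. The lowest share, 75.4%, was that of Hv 3 (95% exact interval, 72.3 to 78.2%), and without this library the differences were 0.332 and -0.157 points.

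The less counted forms took varying shares of the family. The share of miR166.6 was 7.77, 6.20 and 5.66% in the Rc libraries, 8.47, 8.32 and 8.41% in those of Lv and 6.75, 6.40 and 9.07% in those of Hv. The Hv libraries overlapped those of both other groups. The binomial interval of each Lv library was wide (5.25 to 12.8% in Lv 1), so that the SD of 0.0776 points among them was below counting error. Hv 3, the only Hv library from run 2, had a higher share than the others of its group, and the part of the run in this was not tested. The share of miR166.5 was 8.91% ± 0.792 for Rc, 7.45% ± 1.32 for Lv and 9.41% ± 2.01 for Hv, and that of miR166.4 was 4.85% ± 1.04, 3.98% ± 0.146 and 4.60% ± 0.793 (SD, n = 3 each).

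**Figure D3:**
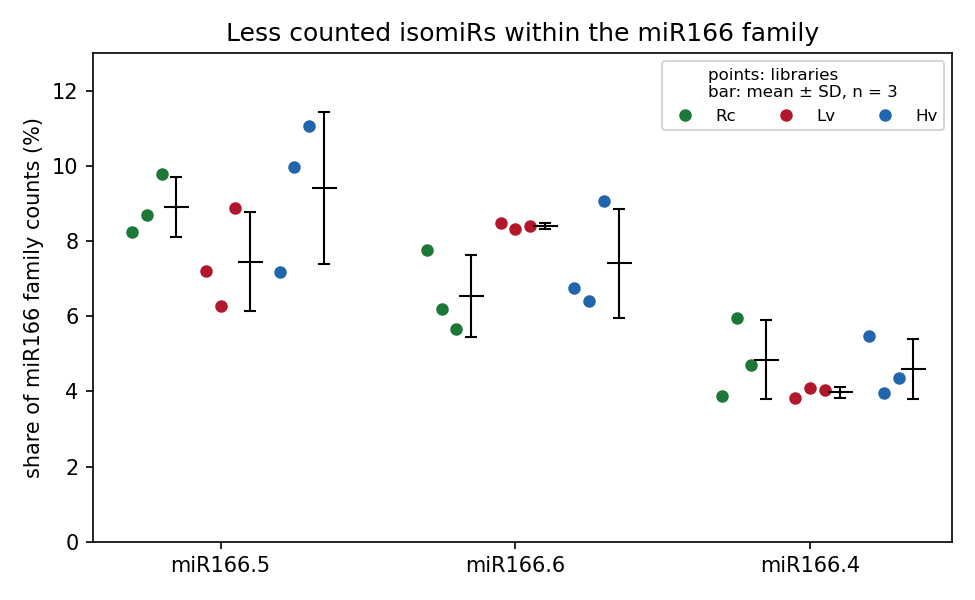
Share of miR166 family counts (%) held by miR166.5, miR166.6 and miR166.4. Points are libraries and bars are means ± SD (n = 3). For miR166.6 the 3 Lv libraries lie between 8.32 and 8.47% and the 3 Rc libraries between 5.66 and 7.77%. The Hv libraries, between 6.40 and 9.07%, overlap both, and the share of miR166.6 was not tested between groups.

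The ratio of another miRNA to miR166.7 within a library is also free of the library size. The study used miR166 beside miR159 and miR168 as references for RT-qPCR, so a ratio to miR166.7 alone is not its normalization. Here 5 miRNAs were followed in both comparisons, which made 10 tests. Among them, miR159.6 and miR168.10 are forms of the other reference families. Of the 98 other miRNAs tested, 8.16% had a ratio lower in every stored library than in every Rc library, and 0.0% a higher one.

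hvu-new44, the predicted miRNA that differs from miR166.7 by U16A and C21U, was among the former. It had 14.5, 13.8 and 15.1 counts per 100 counts of miR166.7 in the Rc libraries, 12.7, 11.6 and 12.3 in those of Lv and 13.1, 10.2 and 11.6 in those of Hv. Every stored library was below every Rc library. The log2 difference was -0.29 (exact two-sided permutation test, p = 0.0238, the smallest possible, and 0.119 adjusted over the 10 tests), so it did not pass the threshold after adjustment. Within run 1 the difference of Hv 1 and Hv 2 from Rc 2 and Rc 3 was -0.33. Between Lv and Hv it was 0.08 (exact permutation p = 0.6).

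hvu-new46 did not share this pattern. It had 31.2, 32.9 and 43.9 counts per 100 of miR166.7 in the Rc libraries, 43.4, 44.1 and 25.3 in those of Lv and 36.6, 37.6 and 32.0 in those of Hv. The groups overlapped, the log2 difference of stored seeds from Rc was 0.01 (exact permutation p = 0.929), and Lv 3, the library in which hvu-new45 fell short of a factor of 4, was the lowest.

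Of the 3 isomiRs of other families, miR156.5 was the one with complete separation. It is not the most counted form of its family, which was miR156.3, whose ratio was not tested. miR156 targets mRNAs of SPL transcription factors, which promote the change from juvenile to adult growth in Arabidopsis. miR156.5 had 57.0, 64.6 and 56.1 counts per 100 of miR166.7 in the Rc libraries, 49.7, 36.4 and 39.0 in those of Lv and 49.2, 45.6 and 54.1 in those of Hv. The log2 difference of stored seeds from Rc was -0.39 (exact two-sided permutation test, p = 0.0238, adjusted 0.119), and within run 1 it was -0.35. The limit on the adjusted value given for hvu-new44 holds here too. The ratios of miR159.6, of the family that targets GAMYB-like mRNAs, and of miR168.10, of the family that targets ARGONAUTE1 mRNA, differed by -0.12 and -0.26 (exact permutation p = 0.524 and 0.429, adjusted 0.857 for both), with overlapping groups. Without Rc 1 the miR168.10 difference was 0.05. Between Lv and Hv the groups of all 5 ratios overlapped, beside 3.06% of miRNAs with a higher and 4.08% with a lower ratio in every Lv library, and none passed the threshold, the smallest possible p being 0.1.

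**Figure D4:**
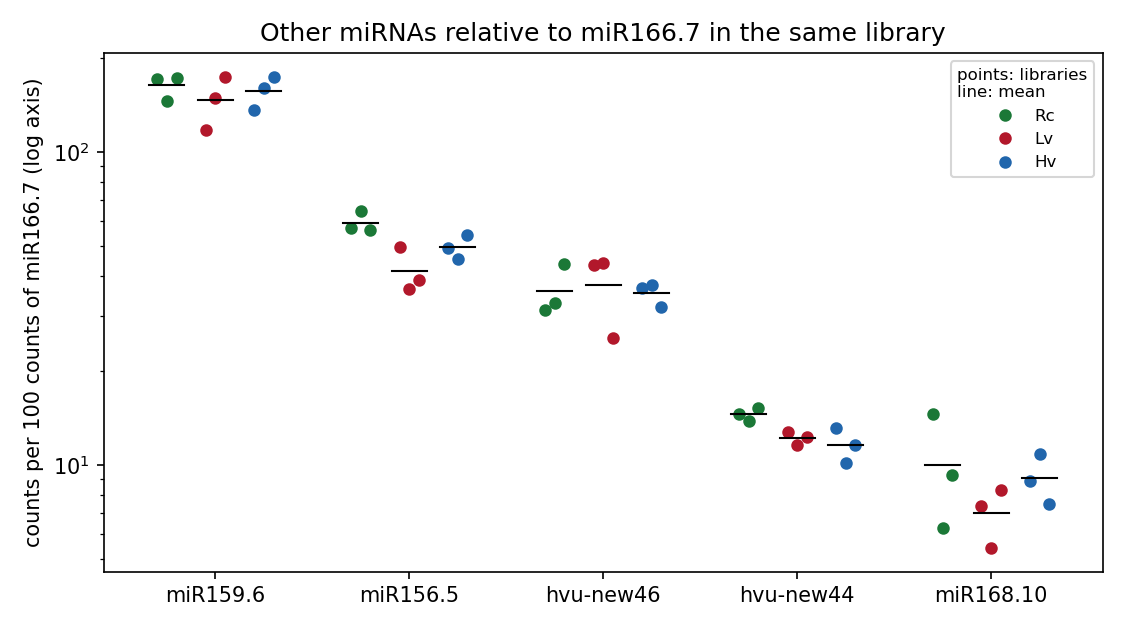
Counts per 100 counts of miR166.7 in the same library, on a log axis, for 5 miRNAs. Points are libraries and lines are group means (n = 3), and for hvu-new44 and miR156.5 all 6 stored libraries lie below the 3 Rc libraries.

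Among known isomiRs, the miR166 family was more concentrated in 1 form than the miR159, miR156 and miR168 families, the 3 compared with it. miR166.7 held 79.4% ± 1.68 (SD, n = 9) of its family, against 60.0% ± 6.53 for miR159.6, 57.4% ± 9.43 for miR168.10 and 46.8% ± 5.49 for miR156.3. The within-library differences were 19.4 ± 6.71, 22.0 ± 8.96 and 32.6 ± 6.21 percentage points, and miR166 was higher in 9 of 9 libraries each time. The exact two-sided paired permutation test gave p = 0.00391 for each, the smallest possible with 9 libraries, and 0.00391 adjusted over the 3 tests. Predicted miRNAs were left out of all 4 families, so the result holds for the known isomiRs alone. With hvu-new46 and hvu-new44 added, the miR166 counts were 2648 for Rc, 2099 for Lv and 2193 for Hv. miR166.7 had 1481, 1211 and 1254 of these. Its share was then lower and was not compared with the other families. The libraries of all groups were pooled in this test, and the SD of miR166 was the smallest of the 4 families. The families differed in depth, with 4989 counts for miR166, 10502 for miR159, 4334 for miR156 and only 605 for miR168. The SD of miR168 thus holds more counting error, and the SDs were not compared by a test.

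**Figure D5:**
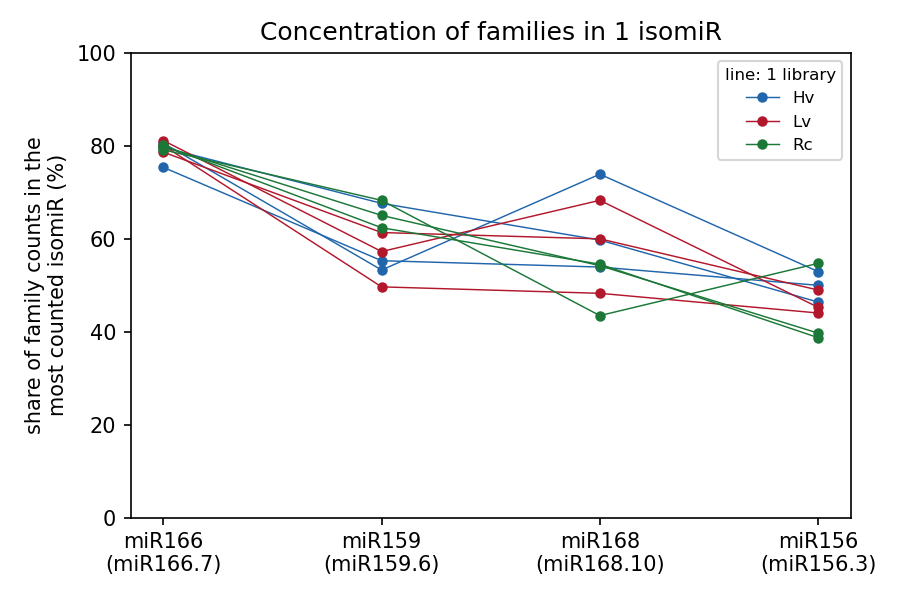
Share of the counts of a family's known isomiRs (%) held by the most counted isomiR of miR166, miR159, miR168 and miR156. Each line is 1 of 9 libraries, coloured by group, and miR166 lies between 75.4 and 81.2%, above each of the 3 other families in every library.

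The miRNAs whose levels followed the miR166 family most closely over the 9 libraries, among 94 compared in log2(CPM + 1), were miR159.6 with a Pearson correlation of 0.815, hvu-new80 with 0.815 and hvu-new62 with 0.699, where the median miRNA had 0.0602. hvu-new80 repeats the counts of miR159.6 over loci and is no further miRNA. The points share library, depth and scaling, and the correlations are given as a description.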

How the data were processed

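Small RNA of 17 to 25 nt was kept by the authors after trimming, cleared of tRNA and rRNA, and mapped to the barley genome (IBSC_v2) in the UEA Small RNA Workbench. Known miRNAs of miRBase 22.1 and their isoforms were counted with miRProf without mismatches, and further ones were predicted with miRCat. The authors deposited raw counts per miRNA, which are whole numbers without normalization. Their deposited normalized values, fold changes and p-values from DESeq2 were not used. Counts are not single reads: those of known miRNAs were 1.17 to 2.53 times the reads listed as matching miRNAs for the same library. The factor was 1.58 to 2.53 for Rc, 1.30 to 1.73 for Lv and 1.17 to 2.25 for Hv. It affects the RPM levels and may enter differences between groups in RPM or in fits scaled to mapped reads. The exact intervals and limits treat each count as an independent read and may therefore be too narrow.

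From the counts, edgeR 4.0.16 in R 4.3.3 (TMM, at least 10 counts over the 9 libraries, Benjamini-Hochberg over all 99 miRNAs tested, threshold 0.05) compared stored seeds with Rc in a 2-group fit and Lv with Hv in a 3-group fit. The family sum replaced its isomiRs in a separate fit without hvu-new45. RPM was computed with the mapped reads of each library. Shares and ratios were compared with exact permutation tests (scipy 1.17.1), intervals are exact Clopper-Pearson at 95%, and a count of 0 was given a limit of 3 counts. Sequences and hairpins came from the supplementary tables, where the names miR166a.N were matched to miR166.N by number, and hairpins were folded with RNAfold (ViennaRNA 2.7.2). DESeq2 1.42.0, other scalings, filters, a run covariate and leaving out each library were the alternatives. The scripts were tested on simulated data. The 3 libraries of a group are described as biological replicates of isolates from 1 seed stock, so p-values measure the spread between isolates.

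The named miRNAs were the 8 members, hvu-new44 and hvu-new46 by their seed, the main forms of miR159, miR156 and miR168 with miR156.5, and the 3 miRNAs most correlated with the family. Members, lists and tests were chosen with earlier results of these data known.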

Additional observations from a re-analysis of the deposited data

Results flagged for a closer look

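The share of miR166.4 in the miR166 family was 5.49% in Hv 1, while the remaining 5 libraries of Lv and Hv lay between 3.81 and 4.36%. The gap to the next library was 0.674 of the whole range, above Dixon's critical value for 6 libraries. The share rests on 13 counts (95% exact interval, 2.95 to 9.20%), and of 20 values examined in this way chance alone would set apart about 1 in 20.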

How the results depend on the processing

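Of 439 alternative values for 33 results, 383 kept their direction and side of the threshold, 50 reversed, and 6 were counts of miRNAs called (1 to 3) where the main count was 0. None of the 4 isomiRs passed the threshold under any alternative run, and no reversed value did; the cause was not tested. For stored seeds over Rc, library sizes from mapped reads gave log2 fold changes of -0.22 for miR166.7, -0.28 for miR166.5, -0.23 for hvu-new45, -0.24 for hvu-new46 and -0.21 for the family sum. The run covariate without Rc 1 gave -0.0548, -0.17, -0.0547, -0.12 and -0.0591, respectively. Those values in effect compare Hv 1 and Hv 2 with Rc 2 and Rc 3, without Lv. miR166.6 kept its sign, at 0.0987 with mapped reads and 0.0852 with the run covariate. miR166.5 was -0.0270 without the filter and -0.0415 without the repeated predicted miRNAs. For Lv over Hv, the run covariate gave -0.74 for miR166.5, -0.0857 for miR166.7, -0.28 for miR166.6, -0.11 for hvu-new45, -0.0135 for hvu-new44 and -0.16 for the family sum. On the Hv side those values rest on Hv 3 alone. Mapped reads gave -0.0022 for hvu-new45 and -0.0173 for the family sum, which was -0.0294 without the filter. With hvu-new44 and hvu-new46 added to the family, the share of miR166.7 differed by 0.412 points (stored and Rc) and -0.0412 points (Lv and Hv). For stored seeds and Rc, 2 miRNAs were called without the filter and 3 by DESeq2.

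Leaving out 1 library at a time gave, for stored seeds over Rc, -0.16 to 0.16 for miR166.5, -0.24 to 0.0948 for miR166.4, -0.0365 to 0.32 for hvu-new46 and 0 to 1 miRNAs called (1 without Hv 1 or Hv 2). For Lv over Hv it gave -0.53 to -0.0354 for miR166.5, 0.0541 to 0.54 for miR166.6, -0.0126 to 0.18 for miR166.7, -0.0437 to 0.16 for hvu-new45, -0.0834 to 0.36 for hvu-new46, -0.13 to 0.10 for the family sum and 0 to 1 miRNAs called (1 without Lv 3 or Hv 3). The share of miR166.7 differed by -0.824 to 0.332 points (stored and Rc) and -0.157 to 2.45 points (Lv and Hv). Ratios to miR166.7 ranged from -0.56 to 0.0517 for miR168.10 and -0.0821 to 0.16 for hvu-new46 (stored and Rc), and from -0.24 to 0.0476 for miR159.6, -0.0917 to 0.31 for hvu-new46 and -0.0138 to 0.17 for hvu-new44 (Lv and Hv).

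Replicate numbers did not pair the libraries: deviations of same-numbered libraries correlated at -0.136 to 0.140 and those of other pairs at -0.260 to 0.240. With the replicate block the family sum was 0.10 (stored over Rc) and 0.05 (Lv over Hv), with 0 miRNAs called in either. The depth of 236 to 1042 family counts limits miR166.4, miR166.5 and miR166.6 most, with intervals of more than 1 log2 unit in width.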
